A study of Homo sapiens with 12 samples.

Results

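The SR splicing factors described here are the 10 genes SRSF1, SRSF2, SRSF3, SRSF4, SRSF5, SRSF6, SRSF7, SRSF9, SRSF10 and SRSF11, taken by name, with no measured value in the rule. All 10 were found among the 55765 gene symbols of the count tables, and all 10 passed the filter on low counts that left 17727 genes for testing. Their mRNA was followed by RNA-seq in T47D cells, a line of luminal breast cancer with progesterone and estrogen receptors, in a study of how loss of PRMT1 bears on the progestin response. The 12 libraries form 4 groups of 3 biological replicates. Cells given an siRNA against PRMT1 (siPRMT1) were treated with 10 nM of R5020, a synthetic progestin, for 6 h, or with its ethanol vehicle. Cells given a control siRNA (siCT) were treated in the same ways. The treatment label of the ethanol samples reads 6 h, while their titles read T0. All groups were the same line, and the loss of PRMT1 was a transient knockdown in the whole culture, so cells with little or no knockdown may remain in the measured pool.

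SR proteins carry RNA recognition motifs and a tail rich in arginine and serine, bind enhancer sequences in exons, and help bring the splicing machinery to nearby splice sites. Kinases of the SRPK and CLK families phosphorylate the tail, which sets where the proteins sit in the nucleus and how they act. Many SR genes limit their own level by splicing a stop-containing exon or retaining an intron, which marks the transcript for nonsense-mediated decay. PRMT1 is a protein arginine methyltransferase that acts on histones and on many RNA-binding proteins.

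The libraries held 26783525 to 34120937 counts each, and each member had between 786 and 7465 counts in a library. PRMT1 stood at 6.89 to 8.38 CPM (counts relative to the TMM-scaled library size) in the 6 siPRMT1 libraries and at 29.7 to 50.7 CPM in the 6 siCT libraries. It was 4.56-fold lower with siPRMT1 in ethanol and 6.07-fold lower in R5020. For the markers alone, CPM is relative to the library total without TMM scaling. All 9 luminal markers fixed for T47D cells were detected at 33.8 CPM or more in every library. Of 13 basal, stromal and leukocyte markers in the table, COL1A1 was the highest at 29.4 to 51.6 CPM, and the other 12 did not exceed 1.49 CPM in any library. A pair of siCT libraries, siCT R5020 1 and siCT ethanol 3, stood apart. Of their counts 52.4% and 59.3% came from mitochondrially encoded genes, against 31.3% to 38.3% in the other 10 libraries, and the members' tests below are given with and without this pair. In bulk RNA, a change in the RNA per cell and a change in the number of cells that make it cannot be told apart.

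The promoters of the members that passed a test are shown first, because the comparisons ask how these genes respond to a hormone whose receptor binds DNA. RefSeq (GRCh38.p14) gave windows of 300 bases, from 250 before to 50 after each annotated start, for 9 of the 10 members and 11 starts. SRSF2 had no entry. 5 motifs were searched on both strands. They were the half-site of the progesterone and glucocorticoid receptors (AGAACA), the E-box (CACGTG), the GC box (GGGCGG), the CCAAT box (CCAAT) and the ETS core (CGGAAG). Capitals mark these motifs or their reverse complements. Each sequence is printed in the direction of transcription of its gene.
SRSF9 promoter, chr12:120469699-120469998, minus strand: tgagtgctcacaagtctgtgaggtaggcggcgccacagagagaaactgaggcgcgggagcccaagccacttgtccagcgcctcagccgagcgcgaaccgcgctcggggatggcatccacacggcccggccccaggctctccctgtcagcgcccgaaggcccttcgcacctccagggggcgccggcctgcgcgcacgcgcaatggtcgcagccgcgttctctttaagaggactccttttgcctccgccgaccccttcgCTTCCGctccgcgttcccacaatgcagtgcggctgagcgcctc
SRSF7 promoter, chr2:38751312-38751611, minus strand: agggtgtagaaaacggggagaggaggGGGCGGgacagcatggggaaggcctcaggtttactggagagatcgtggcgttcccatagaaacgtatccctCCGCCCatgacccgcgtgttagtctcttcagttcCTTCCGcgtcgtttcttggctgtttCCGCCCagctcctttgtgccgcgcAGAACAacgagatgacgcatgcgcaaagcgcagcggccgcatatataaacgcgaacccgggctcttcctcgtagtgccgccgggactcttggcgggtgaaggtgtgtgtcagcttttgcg
SRSF3 promoter, chr6:36594112-36594411, plus strand: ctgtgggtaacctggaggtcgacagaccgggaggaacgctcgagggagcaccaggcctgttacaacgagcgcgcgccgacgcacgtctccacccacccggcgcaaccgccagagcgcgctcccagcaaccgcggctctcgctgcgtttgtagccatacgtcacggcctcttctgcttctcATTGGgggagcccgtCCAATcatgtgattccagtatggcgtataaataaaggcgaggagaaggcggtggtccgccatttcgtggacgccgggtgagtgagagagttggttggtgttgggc
SRSF1 promoter, chr17:58007197-58007496, minus strand: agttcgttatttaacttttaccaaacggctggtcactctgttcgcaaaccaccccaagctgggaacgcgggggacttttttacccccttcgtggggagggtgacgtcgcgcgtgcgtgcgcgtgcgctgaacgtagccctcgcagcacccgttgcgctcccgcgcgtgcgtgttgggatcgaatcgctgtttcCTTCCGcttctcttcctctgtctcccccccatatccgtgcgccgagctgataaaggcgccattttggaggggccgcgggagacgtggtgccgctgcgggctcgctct

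The SRSF9 and SRSF1 windows held a single ETS core and none of the other motifs. The SRSF3 window held 2 CCAAT boxes. The SRSF7 window held 1 receptor half-site, 3 GC boxes and 1 ETS core, and a second annotated SRSF7 start had a window without the half-site. Among the members not printed, the SRSF10 window held 2 receptor half-sites, and none of the E-boxes searched was found in any of the 11 windows. The half-site was present in 14.8% of all 35116 windows of the table, the E-box in 7.26%, the GC box in 45.0%, the CCAAT box in 34.6% and the ETS core in 19.5%. These matches describe letters in a short window and were not related to the values by any test.

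All 10 members were detected in all 12 libraries, and the plot of CPM by library gives each value. The ratio of the highest to the lowest library ran from 1.44 for SRSF6 to 2.89 for SRSF5.

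**Figure D1:**
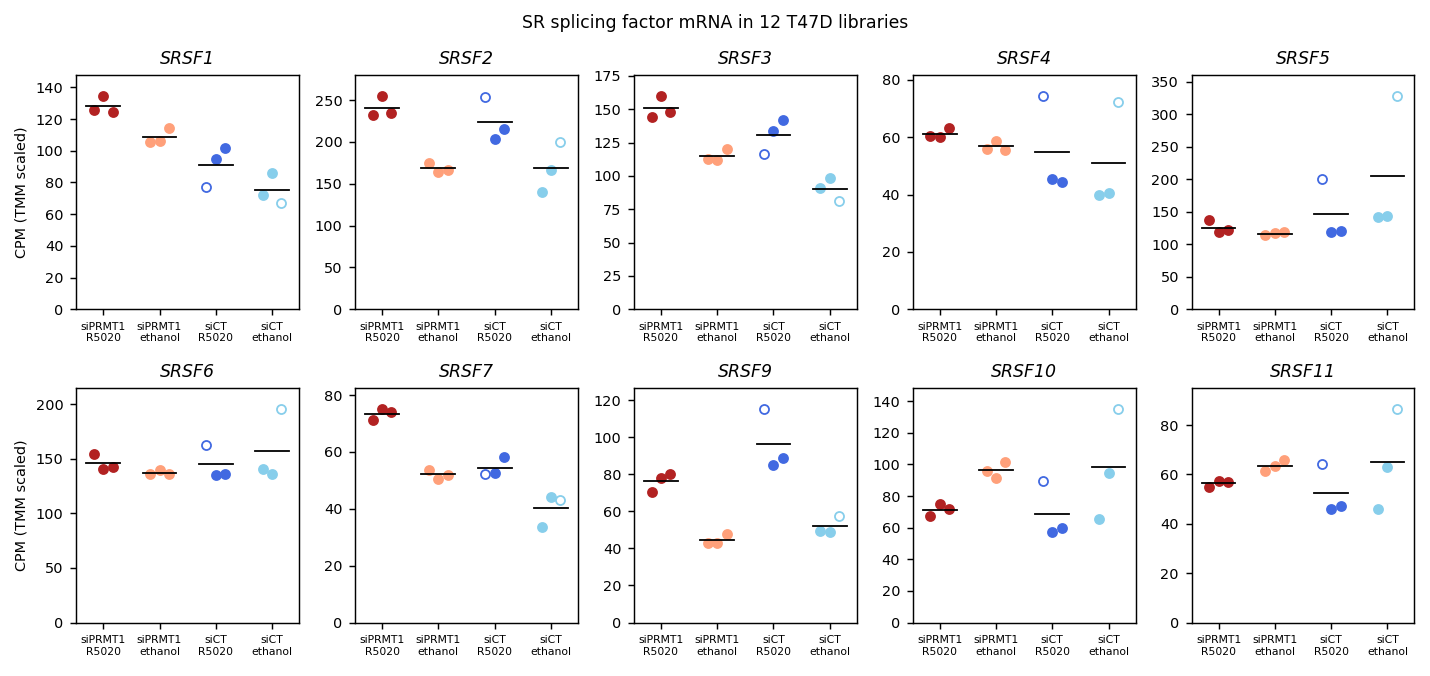
CPM after TMM scaling (vertical axes, from 0) of the 10 SR splicing factor genes in 3 libraries per group. Points are libraries, black bars are group means, and open points mark the siCT pair with a high mitochondrial share. SRSF9 was higher in all R5020 libraries than in all ethanol libraries, and each siPRMT1 library lay above each siCT library for SRSF1.

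Levels can be set between genes only per length, and for this the CPM values were divided by the exonic length of the GENCODE 29 basic annotation in kilobases. On that scale SRSF2 led in siPRMT1 cells, with 82.3 ± 4.29 CPM per kb in R5020 and 57.6 ± 2.10 in ethanol (SD, n = 3). SRSF9 depended on which exons were counted. It had 63.5 ± 4.13 CPM per kb in siPRMT1 R5020, the next highest after SRSF2, over the 1201 bases of the basic annotation, and 20.4 ± 1.32, the sixth highest, over the 3744 bases of all GENCODE 29 transcripts. The longer length was added after the data were seen, and SRSF2 had the highest mean of every group with it. In siCT cells with R5020, SRSF9 at 80.3 ± 13.6 and SRSF2 at 76.6 ± 8.93 did not differ beyond their spread over the basic lengths, and SRSF9 at 25.8 ± 4.36 lay below SRSF2 at 74.3 ± 8.66 over the full lengths. In siCT cells with ethanol, SRSF5 had the highest mean over the basic lengths, 61.7 ± 32.4, which rested on siCT ethanol 3. SRSF10 and SRSF11 were lowest by mean in all 4 groups over the basic lengths, and over the full lengths SRSF4, with 8893 bases in place of 2387, joined them between 5.73 and 6.88 CPM per kb. The authors' annotation is not given in the sources used here, so the order of levels between members is uncertain.

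R5020 and ethanol were compared first in siCT cells, where SRSF9, SRSF3 and SRSF7 rose and none of the other 7 members passed the test. SRSF9 changed most, 1.86-fold. The same comparison in siPRMT1 cells found SRSF9, SRSF2 and SRSF7 higher, with SRSF9 again changing most, at 1.72-fold. The 10 members had a median log2 fold change of 0.19 in siCT cells, where the median over all genes tested was -0.04, and of 0.18 in siPRMT1 cells, where it was -0.0036. Of all genes tested, 13.0% were called in siCT cells and 15.4% in siPRMT1 cells, in either direction, at an adjusted p under 0.05 in the quasi-likelihood test of edgeR with Benjamini-Hochberg adjustment over all genes tested. Calls up alone made 7.59% and 9.30% of the genes tested. No test of the members' share against these backgrounds was made.

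SRSF9, formerly SRp30c, is a short SR protein with a pair of RNA recognition motifs and a reduced arginine and serine tail. It had 115, 85.2 and 88.9 CPM in siCT R5020 libraries, against 49.4, 49.0 and 57.3 CPM in siCT ethanol libraries. In siPRMT1 cells it had 70.7, 78.1 and 80.1 CPM in R5020 libraries, against 42.9, 43.0 and 47.5 CPM in ethanol libraries. The lowest R5020 library stood above the highest ethanol library across both siRNAs. The log2 fold change was 0.89 ± 0.15 SE in siCT cells (edgeR quasi-likelihood adjusted p = 0.00096) and 0.78 ± 0.15 SE in siPRMT1 cells (adjusted p = 0.00233). SRSF9 also took a larger share of the members' summed counts, a measure that needs no scaling between libraries. The share was 9.02% ± 0.450 in R5020 and 5.29% ± 0.752 in ethanol in siCT cells, and 6.75% ± 0.415 in R5020 and 4.63% ± 0.200 in ethanol in siPRMT1 cells (SD, n = 3). Without the pair the log2 fold changes were 0.82 (adjusted p = 7.37e-05) in siCT cells and 0.77 (adjusted p = 1.29e-05) in siPRMT1 cells. Both calls held when any 1 of the 12 libraries was left out. The GENCODE 29 exons of GATC, on the opposite strand, overlap 46.2% of the exonic bases of SRSF9, and the strand setting of the counts is not given in the sources used here. GATC itself had a log2 fold change of -0.15 (95% interval -0.47 to 0.17) with R5020 in siCT cells and -0.09 (-0.41 to 0.23) in siPRMT1 cells.

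SRSF3 and SRSF7 are close relatives, each with a single RNA recognition motif, and both are adaptors that hand mRNA to the export receptor NXF1. SRSF3 had 116, 133 and 142 CPM in siCT R5020 libraries, against 90.8, 98.3 and 81.4 CPM in siCT ethanol libraries. In siPRMT1 cells it had 144, 160.0 and 148 CPM with R5020 and 113, 112 and 119.9 CPM with ethanol. The groups did not overlap with either siRNA. SRSF3 rose in siCT cells (edgeR quasi-likelihood adjusted p = 0.0194, log2 fold change 0.53 ± 0.14 SE). In siPRMT1 cells its value was 0.39 ± 0.14 SE with an adjusted p of 0.0724 and a 95% interval of 0.10 to 0.69. Without the pair both were called, with adjusted p = 0.00116 in siCT cells and 0.00165 in siPRMT1 cells. The siCT call was lost without siCT R5020 2 (adjusted p = 0.0734) or siCT R5020 3 (adjusted p = 0.0938), with no filter on low counts (adjusted p = 0.0812) and with only the groups compared (adjusted p = 0.239). In siPRMT1 cells SRSF3 was also called when siCT ethanol 2 (adjusted p = 0.0391) or siCT ethanol 3 (adjusted p = 0.0353) alone was left out. It was called there by edgeR with only the groups compared (0.38, adjusted p = 3.19e-05), where 46.6% of all genes were called. DESeq2's Wald test (adjusted p = 0.0197, 14.8% of all genes) and limma voom (adjusted p = 3.36e-05, 46.1%) called it as well.

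SRSF7, also known as 9G8, adds a zinc knuckle to its RNA recognition motif. It had 52.3, 52.6 and 58.1 CPM in siCT R5020 libraries, against 33.8, 44.1 and 43.0 CPM in siCT ethanol libraries. In siPRMT1 cells it had 71.3, 75.1 and 74.0 CPM with R5020 and 53.6, 50.6 and 52.1 CPM with ethanol. All R5020 libraries lay above the ethanol libraries of the same siRNA. The log2 fold change was 0.43 ± 0.13 SE in siCT cells (edgeR quasi-likelihood adjusted p = 0.0486) and 0.50 ± 0.13 SE in siPRMT1 cells (adjusted p = 0.0214). Without the pair it was 0.50 (adjusted p = 0.0127) and 0.49 (adjusted p = 0.00278). The siCT call lay at the threshold, and it held without siCT ethanol 2 or siCT ethanol 3 and was lost without any other single library (adjusted p 0.058 to 0.169, log2 fold change 0.33 to 0.51 over all 12). It was also lost with DESeq2 size factors (adjusted p = 0.0523), without mitochondrially encoded genes (0.0547), with no filter on low counts (0.173) and with only the groups compared (0.363). The siPRMT1 call held without any single siCT library, and was lost without any single siPRMT1 library (adjusted p 0.0577 to 0.0934) and with no filter (0.107).

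SRSF2, formerly SC35, is the classic marker of nuclear speckles. It had 232, 255 and 235 CPM in siPRMT1 R5020 libraries, against 175, 164 and 166 CPM in siPRMT1 ethanol libraries. In siCT cells it had 254, 203 and 216 CPM with R5020 and 139.7, 166 and 200.1 CPM with ethanol. The groups were separate with both siRNAs, by a wide gap in siPRMT1 cells and a narrow one in siCT cells, where siCT ethanol 3 was the highest ethanol library. SRSF2 rose in siPRMT1 cells (edgeR quasi-likelihood adjusted p = 0.0446, log2 fold change 0.52 ± 0.16 SE), and in siCT cells its value was 0.41 ± 0.16 SE (adjusted p = 0.12). Without the pair SRSF2 was called up with both siRNAs, at 0.45 (adjusted p = 0.00741) in siCT cells and 0.51 (adjusted p = 5.37e-04) in siPRMT1 cells. In siCT cells, leaving out siCT ethanol 3 alone gave 0.59 (adjusted p = 0.0118). The siPRMT1 call held without siCT ethanol 1, siCT ethanol 2, siCT ethanol 3 or siCT R5020 1, and it was lost without any other single library (adjusted p 0.0581 to 0.15), with DESeq2 size factors (0.0611) and with no filter on low counts (0.126). The exons of MFSD11, on the opposite strand, overlap 36.7% of the exonic bases of SRSF2. MFSD11 had a log2 fold change of -0.38 (95% interval -0.97 to 0.20) with R5020 in siCT cells and -0.28 (-0.86 to 0.30) in siPRMT1 cells.

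SRSF10, formerly SRp38, is known as a splicing repressor once it is dephosphorylated in mitosis or heat shock. It had 67.1, 74.8 and 72.1 CPM in siPRMT1 R5020 libraries, against 96.0, 91.3 and 102 CPM in siPRMT1 ethanol libraries. In siCT cells it had 89.8, 57.3 and 59.7 CPM with R5020 and 65.4, 94.5 and 135 CPM with ethanol. The groups were separate in siPRMT1 cells and overlapped in siCT cells, where each member of the pair was the highest library of its group. SRSF10 was not called, with log2 fold changes of -0.43 in siPRMT1 cells (95% interval -0.94 to 0.07, edgeR quasi-likelihood adjusted p = 0.285) and -0.51 in siCT cells (-1.02 to -0.0034, adjusted p = 0.194). Without the pair it was called lower in siPRMT1 cells (-0.44, adjusted p = 0.0152) and in siCT cells (-0.46, adjusted p = 0.0467), where all genes called made 29.1% and 19.9%. In siCT cells the call also appeared without siCT ethanol 1 alone (-0.73, adjusted p = 0.0337). In siPRMT1 cells SRSF10 was called lower by edgeR with only the groups compared (-0.44, adjusted p = 1.17e-05), where 46.6% of all genes were called. Limma voom with sample quality weights called it lower there too (-0.42, adjusted p = 0.000242), and 46.1% of all genes. Its share of the members' counts was 6.31% ± 0.260 in R5020 and 10.0% ± 0.372 in ethanol in siPRMT1 cells, and 6.41% ± 0.895 in R5020 and 9.63% ± 1.44 in ethanol in siCT cells.

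In the edgeR fit of all 12 libraries the other 5 members were not called for R5020 with either siRNA. SRSF11, an SR-related protein also called p54, had log2 fold changes of -0.31 (95% interval -0.75 to 0.13) in siCT cells and -0.17 (-0.61 to 0.27) in siPRMT1 cells. SRSF1, the founding member of the family and a known proto-oncogene in breast, had 0.28 (-0.04 to 0.60) in siCT cells and 0.24 (-0.08 to 0.56) in siPRMT1 cells. SRSF4, SRSF5 and SRSF6 are the members with a pair of RNA recognition motifs and a long arginine and serine tail. Their values lay between 0.09 and 0.11 in siPRMT1 cells, and their intervals together spanned -0.53 to 0.75. In siCT cells they were 0.11 for SRSF4, -0.47 for SRSF5 and -0.12 for SRSF6, and the SRSF5 interval ran from -1.11 to 0.17. Without the pair none of these 5 was called either. SRSF1 then stood at 0.30 in siCT cells (adjusted p = 0.0619) and 0.23 in siPRMT1 cells (adjusted p = 0.0555), and SRSF11 at -0.23 and -0.18. SRSF4 and SRSF6 stood at 0.15 and -0.03 in siCT cells, SRSF5 at -0.25, and all 3 between 0.08 and 0.10 in siPRMT1 cells. Other fits did call 2 of these members in siPRMT1 cells. SRSF1 was higher by limma voom with sample quality weights (0.23, adjusted p = 0.00627), where 46.1% of all genes were called. With only the groups compared, edgeR called SRSF1 higher (0.23, adjusted p = 0.00321) and SRSF11 lower (-0.18, adjusted p = 0.0152), and 46.6% of all genes. An adjusted p over the threshold does not show that these genes were unchanged.

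Scaling bore on the R5020 calls. With library totals in place of TMM factors, the median log2 fold change of all genes moved by -0.17 in siPRMT1 cells and by -0.03 in siCT cells. Under those totals SRSF9 remained called in siCT cells (edgeR quasi-likelihood adjusted p = 0.0141), where 8.90% of all genes were called. No member was called in siPRMT1 cells, against 11.6% of all genes, and SRSF9 had an adjusted p of 0.0642 there. Relative to the median of all genes, SRSF9 stood 0.78 higher in siPRMT1 cells under both scalings and 0.94 (TMM) or 0.93 (library totals) higher in siCT cells. SRSF7 stood 0.50 above that median in siPRMT1 cells under both scalings, and SRSF2 0.52. A change of scaling shifts all genes of a library together, so these distances could hardly differ and do not test the scaling.

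**Figure D2:**
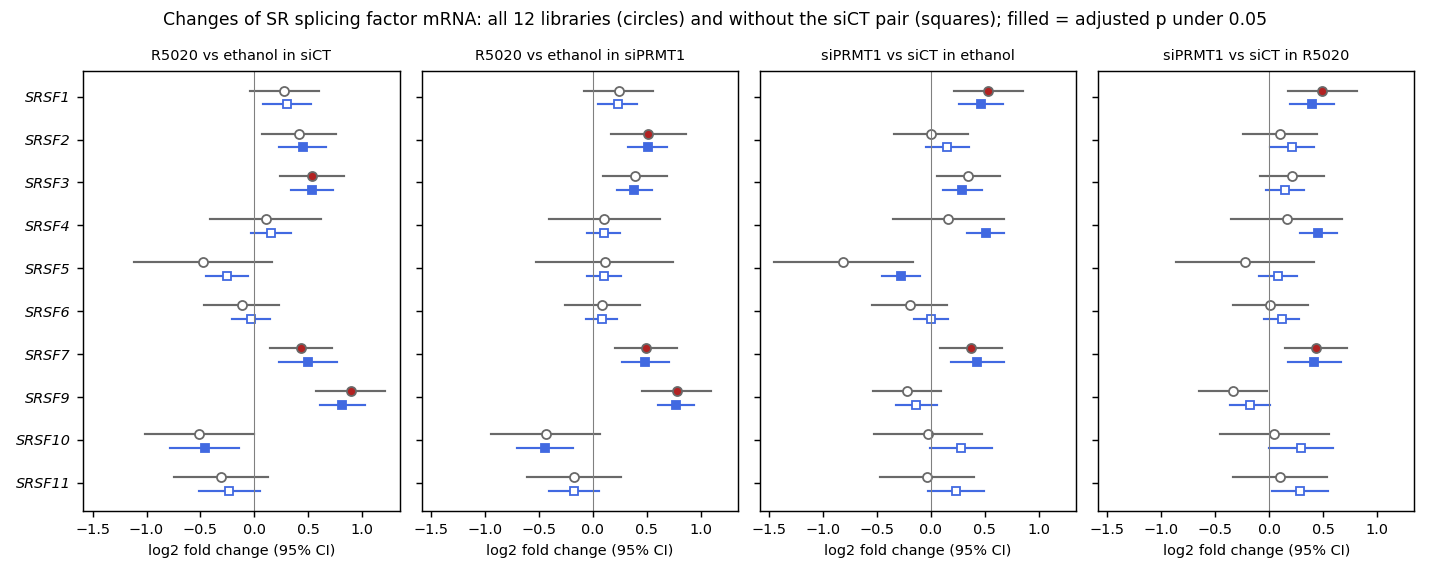
Log2 fold changes with 95% intervals (horizontal axis) of the 10 members in 4 comparisons, with all 12 libraries as circles and without the siCT pair as squares. Filled marks have an adjusted p under 0.05. SRSF9 was called in both R5020 panels and SRSF1 and SRSF7 in both siPRMT1 panels with and without the pair, and intervals were shorter without it.

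The panel of changes also shows siPRMT1 against siCT, which asks what loss of PRMT1 did to these genes. In the edgeR fit of all 12 libraries SRSF1 and SRSF7 rose with siPRMT1 in ethanol and again in R5020. The other 8 members were not called in either. Of all genes tested, 32.8% were called in ethanol and 25.7% in R5020, and calls up alone made 13.6% and 11.5%. The 2 members called are 20% of the 10, and no test of the shares was made. The members' median log2 fold change was -0.01 in ethanol and 0.10 in R5020, against -0.07 and -0.03 for all genes tested. In ethanol that median was 0.25 without the pair, against -0.04 for all genes.

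SRSF1, also known as ASF or SF2, binds purine-rich exonic enhancers and is itself methylated on arginines. It had 106, 106 and 114 CPM in siPRMT1 ethanol libraries, against 72.2, 86.2 and 67.0 CPM in siCT ethanol libraries. In R5020 it had 126, 135 and 125 CPM with siPRMT1 and 77.2, 94.6 and 101 CPM with siCT. Every siPRMT1 library lay above every siCT library, and the pair held the lowest value of each siCT group. SRSF1 rose 1.45-fold in ethanol (edgeR quasi-likelihood adjusted p = 0.0161, log2 fold change 0.53 ± 0.15 SE) and 1.41-fold in R5020 (0.49 ± 0.15 SE, adjusted p = 0.0271). Without the pair the fold was 1.38 (adjusted p = 0.00231) in ethanol and 1.32 (adjusted p = 0.00642) in R5020. Its share of the members' counts was 11.3% ± 0.310 in siPRMT1 and 7.82% ± 2.21 in siCT with ethanol, and 11.3% ± 0.277 in siPRMT1 and 8.71% ± 2.01 in siCT with R5020. Among fits that left out a library, the ethanol call was lost without siPRMT1 ethanol 3 (adjusted p = 0.0667), and it was also lost with only the groups compared (0.0738). The R5020 call was lost without siCT R5020 1 (adjusted p = 0.101), siCT R5020 2 (0.0636), or any single siPRMT1 R5020 library (0.0671 to 0.101), and with no filter on low counts (0.0737).

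GENCODE 29 lists a gene with a clone name, AC015813.2, on the strand of SRSF1 over 56.6% of its exonic bases. How the authors' annotation divides reads between such entries is not given in the sources used here.

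SRSF7 had its highest values in the group with both siPRMT1 and R5020. Its levels, given above for R5020, did not overlap between siPRMT1 and siCT within either treatment. The log2 fold change with siPRMT1 was 0.37 ± 0.13 SE in ethanol (edgeR quasi-likelihood adjusted p = 0.0473) and 0.43 ± 0.13 SE in R5020 (adjusted p = 0.0297). Without the pair it was 0.43 (adjusted p = 0.00955) in ethanol and 0.42 (adjusted p = 0.0121) in R5020. Both calls lay near the threshold. The ethanol call held without siCT ethanol 2, siCT ethanol 3 or siCT R5020 1 and was lost without any other single library (adjusted p 0.0617 to 0.135), with no filter on low counts (0.14) and with only the groups compared (0.169). The R5020 call held without siCT R5020 3 or any single siCT ethanol library and was lost without any other single library (adjusted p 0.0504 to 0.0977) and with no filter (0.107).

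SRSF5, formerly SRp40, showed how far the pair shaped the siCT groups. It had 114, 117 and 118 CPM in siPRMT1 ethanol libraries, against 142, 143 and 328 CPM in siCT ethanol libraries. In R5020 it had 137, 119 and 122 CPM with siPRMT1 and 201, 119 and 121 CPM with siCT. The ethanol groups did not overlap, and the spread in siCT came from siCT ethanol 3, while in R5020 only siCT R5020 1 stood clear. In ethanol the log2 fold change was -0.81 with a 95% interval of -1.45 to -0.17 and an edgeR quasi-likelihood adjusted p of 0.0519. Without the pair it was called lower at -0.28 (adjusted p = 0.0155), and without siCT ethanol 3 alone it was -0.23 with an adjusted p of 0.395. It was called without siCT ethanol 1 (-1.02, adjusted p = 0.0303), siCT ethanol 2 (-1.01, adjusted p = 0.0191) or siCT R5020 1 (-0.80, adjusted p = 0.0309). In R5020 it was -0.23 (-0.86 to 0.41), and 0.08 without the pair.

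SRSF4, formerly SRp75, carries the longest arginine and serine tail of the classic members. It had 56.0, 58.7 and 55.7 CPM in siPRMT1 ethanol libraries, against 39.8, 40.6 and 72.4 CPM in siCT ethanol libraries. In R5020 it had 60.3, 60.1 and 63.3 CPM with siPRMT1 and 74.4, 45.5 and 44.4 CPM with siCT. The siPRMT1 values lay between the pair and the other 4 siCT libraries in both treatments. SRSF4 was not called in the edgeR fit of all 12 libraries (log2 fold change 0.16 in ethanol and 0.16 in R5020, edgeR quasi-likelihood adjusted p = 0.631 and 0.647). Without the pair it was called higher with siPRMT1 in ethanol (0.51, adjusted p = 4.34e-04) and in R5020 (0.46, adjusted p = 0.00101), where all genes called made 44.5% and 38.9%. Leaving out siCT ethanol 3 alone gave 0.56 in ethanol (adjusted p = 0.0403). With all 12 libraries, limma voom with sample quality weights called SRSF4 higher in R5020 (0.43, adjusted p = 0.000442), and 55.7% of all genes.

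Of the remaining members, SRSF3 had a log2 fold change of 0.35 with siPRMT1 in ethanol (edgeR quasi-likelihood adjusted p = 0.066, 95% interval 0.05 to 0.64) and was called at 0.29 without the pair (adjusted p = 0.0138). It was also called without siCT ethanol 2 alone (0.41, adjusted p = 0.0298). With all libraries, DESeq2's Wald test called it in ethanol (0.39, adjusted p = 0.00752), and 31.7% of all genes. So did edgeR with DESeq2 size factors (0.38, adjusted p = 0.0439), where 32.8% of all genes were called. In R5020 SRSF3 stood at 0.21 (-0.08 to 0.50), and at 0.15 without the pair. SRSF9 lay lower in each siPRMT1 library than in any siCT library of the same treatment without being called, at -0.22 (-0.54 to 0.10) in ethanol and -0.34 (-0.65 to -0.02) in R5020, or -0.13 and -0.18 without the pair. SRSF2 stood at -0.00079 (-0.35 to 0.34) in ethanol and 0.10 (-0.24 to 0.45) in R5020, or 0.15 and 0.21 without the pair. SRSF6, whose 12 values ran from 135 to 195 CPM and were the least spread of any member in ratio, stood at -0.20 (-0.54 to 0.15) in ethanol and 0.01 (-0.34 to 0.36) in R5020, or -0.00033 and 0.12 without the pair. SRSF10 and SRSF11 had values between -0.04 and 0.10 in both treatments, and their intervals together spanned -0.53 to 0.56. Without the pair SRSF10 stood at 0.28 in ethanol and 0.30 in R5020 and SRSF11 at 0.23 and 0.28, with none called. In R5020 limma voom with sample quality weights called both higher, SRSF10 at 0.27 (adjusted p = 0.0207) and SRSF11 at 0.26 (adjusted p = 0.0129), where it called 55.7% of all genes. That voom fit also called SRSF2 higher in R5020 (0.19, adjusted p = 0.046). With library totals as the scaling no member was called for siPRMT1 in either treatment, against 17.0% of all genes in ethanol and 13.7% in R5020. In ethanol the median of all genes moved by 0.18 under that scaling, and SRSF1 stood above it by 0.60 (TMM) or 0.58 (library totals). Such a distance is nearly fixed under any scaling.

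Whether R5020 acted differently in siPRMT1 and siCT cells was tested as the interaction (its log2 effect with siPRMT1 minus its log2 effect with siCT). None of the 10 members was called by edgeR's quasi-likelihood test (adjusted p = 1 for each), none had an unadjusted p under 0.05, and DESeq2 and limma voom called none either. Of all genes tested 14, or 0.0790%, were called. Estimates ran from -0.14 for SRSF3 to 0.59 for SRSF5 on the log2 scale. The 95% interval was -0.56 to 0.33 for SRSF9, -0.55 to 0.28 for SRSF3, -0.34 to 0.47 for SRSF7, -0.38 to 0.59 for SRSF2 and -0.32 to 1.49 for SRSF5. Without the pair SRSF5 stood at 0.36 (0.11 to 0.61, adjusted p = 0.267) and no member was called, where 0.779% of all genes were. The other 9 then ran from -0.15 to 0.12. Thus SRSF3 passed the R5020 test in siCT cells and not in siPRMT1 cells, and SRSF2 the reverse, with no difference between the siRNAs shown for either gene.

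The members' values were also summed within each library. The 10 genes together had 1117, 1155 and 1119 CPM in siPRMT1 R5020 libraries, against 954, 945 and 977 CPM in siPRMT1 ethanol libraries, without overlap. In siCT cells they had 1207, 973 and 1014 CPM with R5020 and 819, 921 and 1266 CPM with ethanol, and the pair gave the highest library of each group. As a share of the members' summed counts, which needs no scaling, SRSF2 was the largest in every group by mean except siCT ethanol. There it had 17.0% ± 1.11, against 19.6% ± 5.57 for SRSF5, which took 25.9% in siCT ethanol 3.

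**Figure D3:**
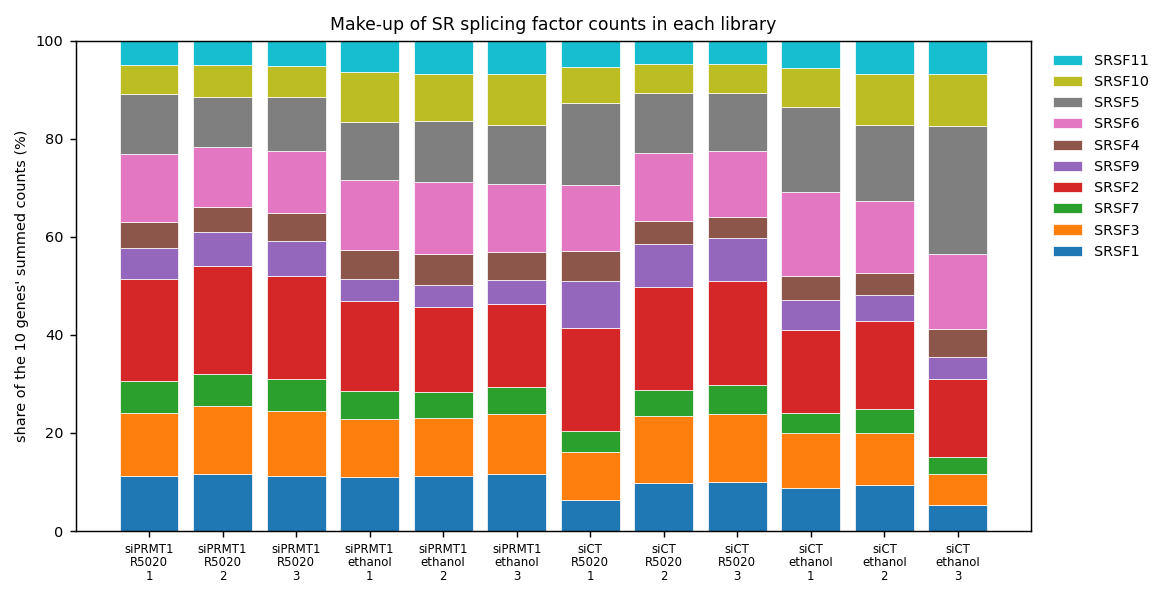
Stacked bars give each gene's share (%, vertical axis) of the 10 members' summed counts in each of 12 libraries. SRSF5 took 25.9% in siCT ethanol 3, and SRSF9 took 6.33% to 9.54% in R5020 libraries and 4.49% to 6.03% in ethanol libraries.

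The siCT pair with the high mitochondrial share also differed in these shares. Outside the pair, siPRMT1 R5020 1 had the highest mitochondrial share, 38.3%. Its SRSF1 share was 11.2%, with 11.7% in siPRMT1 R5020 2 and 11.1% in siPRMT1 R5020 3. SRSF1 took 6.39% of the members' counts in siCT R5020 1 and 5.29% in siCT ethanol 3, against at least 8.82% in each of the other 10 libraries. SRSF3 took 9.63% in siCT R5020 1 and 6.43% in siCT ethanol 3. The part of the mitochondrial share in these values was not tested.

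The likeness of 2 genes was measured as the root mean square difference of their centred log2 CPM across the 12 libraries. Members were set against 10132 genes outside the family whose mean reached 5 CPM, passing over clone names. The measure is given as a description, since all values share libraries and scaling. Among the members SRSF10 and SRSF11 were the closest pair at 0.13, followed by SRSF3 and SRSF7 at 0.14. Outside the family, the nearest gene to SRSF9 was MAGI1 at 0.11, and the median over the genes compared was 0.57. The nearest was WDR43 for SRSF1 (0.072), CBLB for SRSF3 (0.066) and CDK19 for SRSF7 (0.072). The medians over the genes compared for those 3 members lay between 0.42 and 0.44. The next 2 were FAM110C and MGAT2 for SRSF9, FERMT2 and FAM177A1 for SRSF1, ZW10 and RAB11FIP1 for SRSF3, and DDX3X and LONRF1 for SRSF7.

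A total of 5 lists of genes that work with the SR proteins were read beside the members. Their calls are to be read against all genes tested, of which, as above, 13.0% were called for R5020 in siCT cells, 15.4% for R5020 in siPRMT1 cells, 32.8% for siPRMT1 in ethanol and 25.7% for siPRMT1 in R5020, or 19.9%, 29.1%, 44.5% and 38.9% without the pair. Nothing particular to a list was tested. The first holds other SR and SR-related proteins, of which 24 of 26 were tested. With R5020 in siPRMT1 cells 3 of them, or 12.5%, rose and none fell (median 0.06), and 6 rose without the pair. NKTR, a cyclophilin with an arginine and serine domain, had 252 ± 7.13 CPM in R5020 and 116 ± 1.89 in ethanol (log2 fold change 1.11, edgeR quasi-likelihood adjusted p = 0.024). RNPS1, which sits on the exon junction complex, rose by 0.74 (adjusted p = 0.00581), and SRRM1, a coactivator that bridges SR proteins and the spliceosome, by 0.56 (adjusted p = 0.00638). In siCT cells edgeR called none of the 24, and 5 had an unadjusted p under 0.05, while 3 rose without the pair and 1 with library totals. With siPRMT1, 3 rose and 1 fell in each treatment, 16.7% of the list, with medians of -0.19 in ethanol and 0.07 in R5020. Without the pair 7 rose and 3 fell in ethanol, where the median turned to 0.09, and 9 rose and 2 fell in R5020 (median 0.27). With library totals the ethanol median was 0.04. RSRC1, a small SR-related protein, had 37.2 ± 0.820 CPM in siPRMT1 and 14.8 ± 6.29 in siCT with ethanol (2.50-fold, edgeR quasi-likelihood adjusted p = 0.00128) and rose 1.89-fold in R5020. BCLAF1 rose 1.47-fold in ethanol and 1.52-fold in R5020. SRSF8, an intronless human relative copied from SRSF2, had 42.5, 42.3 and 42.6 CPM in siPRMT1 ethanol libraries, against 29.8, 26.0 and 14.7 CPM in siCT ethanol libraries. In R5020 it had 45.9, 45.4 and 46.4 CPM with siPRMT1 and 19.4, 29.8 and 30.5 CPM with siCT. Its groups did not overlap, and it rose 1.80-fold in ethanol (adjusted p = 0.0134) and 1.73-fold in R5020 (adjusted p = 0.0232), while SRSF2 did not pass that test. Reads shared by SRSF8 and SRSF2 could be counted for either or dropped.

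The second list holds kinases, phosphatase subunits and the nuclear importer of SR proteins, with 17 of 18 tested. None was called for R5020 in siCT cells by edgeR, with 2 at an unadjusted p under 0.05 and 1 lower without the pair, and in siPRMT1 cells PPP1R10, a targeting subunit of protein phosphatase 1, fell (log2 fold change -0.55, edgeR quasi-likelihood adjusted p = 0.012). With siPRMT1, CLK3, a kinase of the SR tail, had 24.4 ± 0.463 CPM against 43.0 ± 6.67 CPM with siCT in ethanol, and fell 1.76-fold there (adjusted p = 9.14e-04) and 1.68-fold in R5020 (adjusted p = 0.00195). PPP1CB, a catalytic subunit of protein phosphatase 1, rose 2.29-fold in ethanol and 2.31-fold in R5020 with siPRMT1. TNPO3, the importer of SR proteins, was 1.53-fold lower with siPRMT1 in ethanol (adjusted p = 0.0352), with overlapping groups. In all, 1 rose and 2 fell in ethanol, 17.6% of the list, and 2 rose and 2 fell in R5020, 23.5%. Without the pair 3 rose and 3 fell in ethanol and 5 rose and 3 fell in R5020.

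The third list holds 24 factors that recognise splice sites, all tested. With siPRMT1, SNRPB, a core protein of the spliceosomal snRNPs, fell 1.64-fold in ethanol (62.96 ± 1.42 CPM in siPRMT1, 103 ± 29.6 CPM in siCT, edgeR quasi-likelihood adjusted p = 0.00932) and 1.65-fold in R5020. SNRNP70 of the U1 snRNP fell 1.42-fold in ethanol and 1.45-fold in R5020, and SF3A2 of the U2 snRNP fell in both, 1.94-fold in ethanol and by 0.59 on the log2 scale in R5020. In all, 3 fell and none rose in ethanol (12.5%, median 0.06), and 3 fell and 1 rose in R5020 (16.7%, median 0.0043). Without the pair 5 fell and 2 rose in each treatment, and the medians turned to -0.08 in ethanol and -0.09 in R5020. With R5020, SF3A2 rose 1.59-fold in siPRMT1 cells (adjusted p = 0.0309), as the only call of the list there, and none was called in siCT cells by edgeR, with 1 at an unadjusted p under 0.05. Without the pair 3 rose in siPRMT1 cells and 1 in siCT cells.

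The fourth list holds 18 genes of nonsense-mediated decay and the exon junction complex, the pathway that removes the nonproductive SR transcripts. RNPS1 is also in the first list and is counted in both. With R5020 in siPRMT1 cells RNPS1, EIF4A3 and UPF1 rose, by 0.74, 0.66 and 0.62 on the log2 scale, and none fell (16.7%, median 0.06), and without the pair 3 rose as well. In siCT cells edgeR called none, with 3 at an unadjusted p under 0.05, and 1 rose without the pair. With siPRMT1, NCBP1 of the cap-binding complex rose 1.66-fold in ethanol and 1.53-fold in R5020, and SMG9 fell 1.59-fold in ethanol and 1.60-fold in R5020. The counts were 2 up and 3 down in ethanol (27.8%) and 4 up and 2 down in R5020 (33.3%), or 3 up and 6 down and 6 up and 2 down without the pair. The fifth list holds 13 mRNA export partners. THOC5 rose with R5020 in siCT cells (1.80-fold, edgeR quasi-likelihood adjusted p = 0.00101) and in siPRMT1 cells (1.53-fold, adjusted p = 0.00798). NXT1, the partner of the export receptor NXF1, rose 1.75-fold in siCT cells (adjusted p = 0.0187). These were the only export calls with R5020 over all libraries, 2 in siCT cells (15.4%) and 1 in siPRMT1 cells (7.69%), and without the pair 2 and 4 rose. With siPRMT1 in ethanol 2 rose and 1 fell (23.1%), or 4 and 2 without the pair. Over all libraries THOC7 rose 1.69-fold (adjusted p = 0.0493) and the others were under 2 CPM in each group. In R5020 none was called by edgeR, with 1 at an unadjusted p under 0.05, while 3 rose and 2 fell without the pair.

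**Figure D4:**
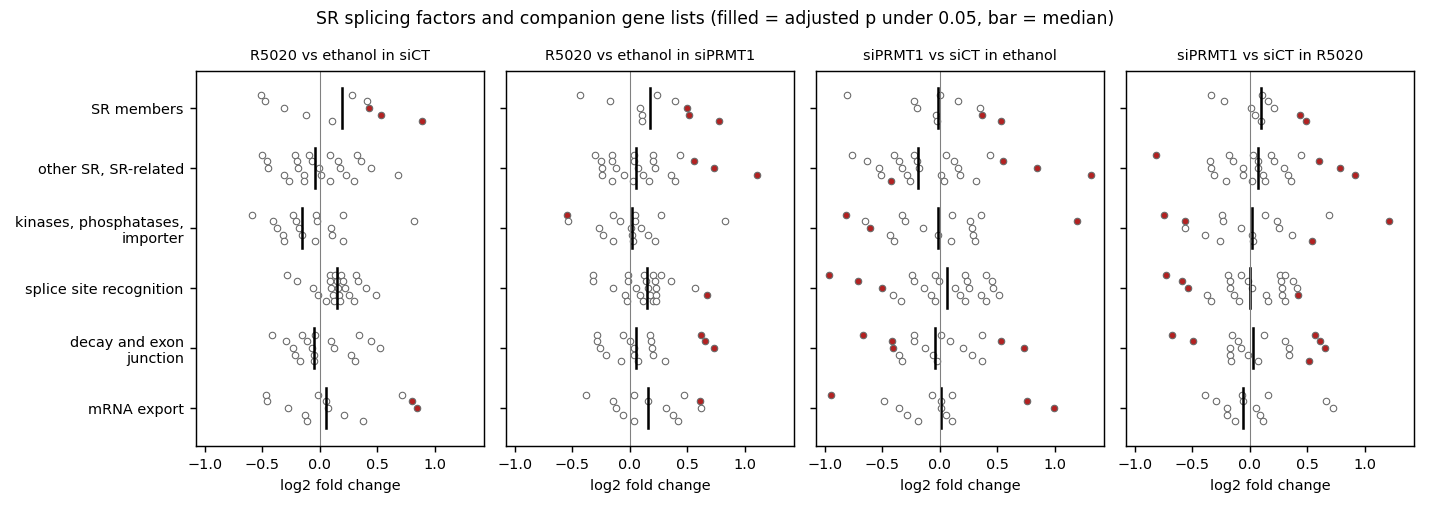
Log2 fold changes (horizontal axis) of the SR members and the 5 companion lists in 4 comparisons. Each point is a tested gene, filled where the adjusted p is under 0.05, and bars are list medians. The members' median was 0.19 for R5020 in siCT cells and 0.18 in siPRMT1 cells.

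Counts here are per gene and sum all transcripts of that gene. GENCODE 29 lists a nonsense-mediated decay transcript for all 10 members, 22 of their 107 transcripts, and a retained intron transcript for 8. A change in a member's count can therefore be one of productive or of nonproductive transcripts, and the count tables do not separate them.

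In the authors' deposited table, SRSF9 was the only member called for R5020 in siCT cells, with a log2 fold change of 0.86 (adjusted p = 0.00379), where 6.61% of its genes were called. For R5020 in siPRMT1 cells the authors' deposited table called SRSF1, SRSF2, SRSF3, SRSF7 and SRSF9 up and SRSF10 and SRSF11 down, where 33.6% of its genes were called. For siPRMT1 against siCT it called SRSF1 and SRSF7 up in R5020 (30.7% of genes called) and SRSF1 up in ethanol (19.8%). The authors' deposited table gave SRSF10 a log2 fold change of -0.43 with R5020 in siPRMT1 cells (adjusted p = 3.12e-09).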

How the data were processed

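For each of the 12 libraries the authors deposited unnormalized read counts by gene symbol. The submitters' processing notes name HTSeq 0.9.1, Bowtie2 2.3.2.2, the build hg19 and DESeq2 without a version, and assign them no role or order. TRIzol was used for RNA and the SENSE mRNA kit V2 of Lexogen for the libraries, per the labels' protocols. Neither the strand setting nor the annotation release is given in the sources used here. Whether reads of genes on opposite strands were counted apart is therefore not known. Log2 fold changes and adjusted p-values that the authors deposited are quoted only where named as theirs.

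The test was that of edgeR 4.0.16 (R 4.3.3), with filterByExpr, TMM scaling, 1 mean per group over all 12 libraries, glmQLFit and glmQLFTest, and Benjamini-Hochberg adjustment over 17727 genes. Calls were made under an adjusted p of 0.05. Each log2 fold change puts R5020 over ethanol or siPRMT1 over siCT. SE is that of the log2 value, and 95% intervals use the t distribution with edgeR's degrees of freedom. DESeq2 1.42.0 and limma 3.58.1 gave alternatives. P-values and intervals rest on the spread between biological replicates, with 1 estimate shared by the 4 groups. The siCT pair thus enters them also where only siPRMT1 libraries are compared. For R5020 in siPRMT1 cells 15.4% of all genes were called, and 46.6% with only the groups compared.

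The members and lists were chosen with earlier results of these data known. The text names all members in every comparison, PRMT1, up to 3 called genes per list and comparison by adjusted p, and the 3 nearest genes to each called member. Some genes that this rule names are not reported here. Replicate numbers are not said to mark a shared day. Same-numbered libraries did not deviate together in any comparison by the rule that every correlation exceed 0.1, and no pairing was used. No library was a duplicate of another in its group, since the chi-square per degree of freedom between them was 3.13 or more. Libraries of different groups were not compared in this way. The labels name the replicates biological, and this check cannot show that. Gene lengths, transcript types and overlaps came from GENCODE 29 (GRCh38), used for these features alone. Protein sequences were not analysed here.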

Additional observations from a re-analysis of the deposited data

How the results depend on the processing

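SRSF9 kept its call with R5020 in siCT cells under all alternatives except a fit of only the groups compared (log2 fold change 0.91, adjusted p = 0.053), and in siPRMT1 cells under all except library totals (0.61, adjusted p = 0.0642). Over single members, 349 values outside the leave-one-out fits kept their direction and side of the threshold, 24 passed it, 28 lost it and 39 changed sign. The cause was not tested for any of these. The number of members called up, 3 for R5020 in siCT cells, was 1 under library totals, 1 with no filter on low counts and 0 with only the groups compared, where 8.90%, 7.99% and 5.29% of all genes were called. For R5020 in siPRMT1 cells, 3 members were up, where 15.4% of all genes were called. With library totals 0 were up (11.6% of all genes called), and with no filter 1 (8.97%). Voom quality weights gave 5 up (46.1%), and only the groups compared gave 5 up and 2 down (46.6%). For siPRMT1 in ethanol, 2 were up, where 32.8% of all genes were called. The number was 0 under library totals (17.0%), 1 with no filter (19.7%) and 0 with only the groups compared (19.5%). For siPRMT1 in R5020, 2 were up, where 25.7% of all genes were called. The number was 0 under library totals (13.7%), 0 with no filter (15.8%) and 6 with voom (55.7%). Without the siCT pair, 1 member was down with R5020 in siCT (19.9% of all genes called) and 1 with R5020 in siPRMT1 (29.1%). With siPRMT1 in ethanol 1 was down and 4 were up without the pair (44.5%). With voom, 1 was down with R5020 in siPRMT1 (46.1% of all genes called). For siPRMT1 in ethanol, DESeq2's Wald test (31.7%) and the unfiltered fit (19.7%) each called 1 down. With the replicate number as a block, 1 member was up with siPRMT1 in ethanol (27.8% of all genes called) and 1 in R5020 (21.7%). The block also ended the calls of SRSF2 with R5020 in siPRMT1 cells (adjusted p = 0.0923), of SRSF7 with R5020 in siCT cells (0.0867), and of SRSF7 with siPRMT1 in ethanol (0.0721) and in R5020 (0.0516). The numbers share no stated pairing, and in siCT cells no R5020 library correlated best with the ethanol library of its number. By deviations from the group mean, siCT R5020 1 went with siCT ethanol 3 (r = 0.81). R5020 2 went with ethanol 1 (0.56), and R5020 3 with ethanol 2 (0.61). Same numbers gave -0.53, 0.28 and -0.67, so the block did not follow these matches, and no fit was made with them.

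Leaving out 1 library at a time, the members called up ranged from 1 to 4 for R5020 in siCT, 1 to 4 for R5020 in siPRMT1, 0 to 3 for siPRMT1 in ethanol and 0 to 2 for siPRMT1 in R5020. Those called down ranged from 0 to 1 for R5020 in siCT and 0 to 1 for siPRMT1 in ethanol. Over the same fits 8.57% to 16.8% of all genes were called for R5020 in siCT and 10.1% to 21.1% for R5020 in siPRMT1. For siPRMT1 the shares ran from 19.3% to 43.4% in ethanol and from 12.9% to 37.5% in R5020.

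Signs changed only for values that were not called. For siPRMT1 in ethanol, SRSF2 was 0.23 under library totals, 0.025 with DESeq2 size factors, 0.044 with DESeq2, 0.040 with no filter, 0.11 with voom, 0.013 with only the groups compared, 0.0026 with the replicate block, 0.011 without mitochondrial genes and 0.15 without the pair. SRSF10 was 0.25 under library totals, 0.017 with DESeq2, 0.017 with no filter, 0.23 with voom and 0.28 without the pair. SRSF11 was 0.23 under library totals, 0.0084 with DESeq2, 0.0082 with no filter, 0.19 with voom and 0.23 without the pair, and SRSF6 was 0.047 under library totals. For siPRMT1 in R5020, SRSF5 was 0.019 with voom and 0.080 without the pair, and SRSF6 was -0.0043 with only the groups compared. For R5020 in siPRMT1, library totals gave -0.064 for SRSF4, -0.064 for SRSF5 and -0.085 for SRSF6. For the interaction, library totals gave -0.11 for SRSF10, -0.051 for SRSF11, -0.067 for SRSF2, -0.19 for SRSF4 and -0.11 for SRSF7. The interaction of SRSF4 was -0.027 with DESeq2, -0.018 with DESeq2 size factors, -0.021 with no filter, -0.012 with the replicate block and -0.051 without the pair. That of SRSF7 was -0.021 with voom and -0.011 without the pair, and that of SRSF9 was 0.00071 with voom.

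Leaving out 1 library at a time, the values that changed sign ranged, for R5020 in siCT, from -0.17 to 0.48 for SRSF4, -0.76 to 0.081 for SRSF5 and -0.21 to 0.099 for SRSF6. For siPRMT1 in R5020 they ranged from -0.071 to 0.29 for SRSF10, -0.36 to 0.069 for SRSF5 and -0.039 to 0.11 for SRSF6. For siPRMT1 in ethanol they ranged from -0.25 to 0.33 for SRSF10, -0.24 to 0.28 for SRSF11, -0.12 to 0.20 for SRSF2 and -0.29 to 0.050 for SRSF6. For the interaction they ranged from -0.15 to 0.047 for SRSF1, -0.11 to 0.22 for SRSF2, -0.41 to 0.28 for SRSF4, -0.0067 to 0.87 for SRSF5 and -0.046 to 0.30 for SRSF6. Those of SRSF7, SRSF9, SRSF10 and SRSF11 ranged from -0.052 to 0.17, -0.26 to 0.029, -0.29 to 0.31 and -0.18 to 0.34, in that order.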

Other observations

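The tables hold 5 further rows with an SRSF symbol. SRSF12 and SRSF1P1 had 0 counts in all 12 libraries. SRSF10P1 had 0 to 3 counts and SRSF9P1 had 0 to 5 counts per library, so few reads were assigned to these pseudogenes of SRSF10 and SRSF9. SRSF8 had 268 to 1590 counts per library.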
